A study of Mus musculus with 19 samples.

Results

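The sex difference of the mouse liver transcriptome was measured on autosomal genes in young adults fed a nutritionally complete diet, as 5 libraries from female (XX) control mice against 4 libraries from male (XY) control mice. Of 21950 genes in the count table, 20742 lie on the 19 autosomes, and the 12959 of these that passed the filter on low counts are the genes described here. All mice were wild-type C57BL/6J with no transgene or deletion. The control diet held 15% fat, 20% protein and 65% carbohydrate; it was given to the dams when the pups were 8 days old, the pups were weaned onto it on day 21 for 5 further weeks, and livers were taken at 8 weeks. The series also holds 5 female and 5 male mice raised in the same way on an isocaloric diet of 5% fat, 7% protein and 88% carbohydrate, called the malnourishing diet here, and its title concerns a clotting defect of malnourished mice that differs by sex. Those 10 libraries share in the estimate of spread and give a second sex comparison with no library in common with the first. Each library is bulk RNA from 1 piece of frozen liver, prepared with a stranded total RNA kit, and the sources used here do not give litter, cage, stage of the oestrous cycle or hour of collection. The p-values therefore measure the spread between these mice, some of which may be littermates.

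In rodents the pituitary secretes growth hormone in widely spaced pulses in males and in a nearly continuous pattern in females. In hepatocytes the hormone acts through its receptor, the kinase JAK2 and the transcription factor STAT5B, and the repressors BCL6 and CUX2 are known to act on the male and female programmes. The genes best known for sex bias in mouse liver encode cytochrome P450s, sulfotransferases and other enzymes of steroid, fatty acid and drug metabolism, together with the major urinary proteins that males secrete as carriers of scent.

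Total counts ranged from 21377385 to 33501907 in the female control libraries and from 22891805 to 31291814 in the male ones. The Y-linked gene Ddx3y lay at 23.2 to 33.5 CPM (counts per 1000000 counts of a library, with the library size scaled by TMM) in the 4 male control libraries and at 0.0694 CPM or less, at most 2 counts, in the 5 female ones, as the labels give. The TMM scaling factors were 0.974 to 1.079 in the female and 0.880 to 0.9795 in the male control libraries. Hepatocyte markers were abundant in every library, with Alb (albumin) between 86625 and 141975 CPM; of the markers of other cell types, Ly6g (neutrophils), Lep (fat) and Cpb1 (exocrine pancreas) were at 0 in all 9. Male control 4 and female control 5 carry label numbers of a second series, whose meaning the labels do not give. Male control 4 lay among the females for several groups of genes below, and male control 1 had the highest levels of acute-phase genes.

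At an adjusted p below 0.05 (edgeR's quasi-likelihood test, Benjamini-Hochberg adjustment over all 13391 genes tested), 1222 autosomal genes were higher in females, 9.43% of those tested, and 1126 were higher in males, 8.69%. All differences are given as log2 of female over male on the fitted scale, so that a positive value means higher in females. The standard error after ± is the absolute difference divided by the square root of the test's F statistic. It was not taken from the model's coefficients and is approximate where a sex had few counts. At least 2-fold differences numbered 348 higher in females (2.69%) and 259 higher in males (2%). Differences of at least 8-fold (3 on the log2 scale) numbered 51 and 60, and those of at least 5 on the log2 scale 24 and 19. The median fold among called genes was 1.70 for female-higher and 1.45 for male-higher genes. CPM did not overlap between the 5 female and 4 male libraries for 14.9% of autosomal genes. The balance between the directions rested on the scaling between libraries: with library size alone in place of TMM, 1763 genes were higher in females and 548 in males, so that 76.3% rather than 52.0% of calls were female-higher, and the median over all autosomal genes moved from -0.03 to 0.10. Leaving out single libraries gave 846 to 1471 female-higher and 653 to 1338 male-higher genes; the male-higher count was 680 without male control 1, 653 without male control 2, 735 without male control 3 and 740 without female control 1.

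**Figure D1:**
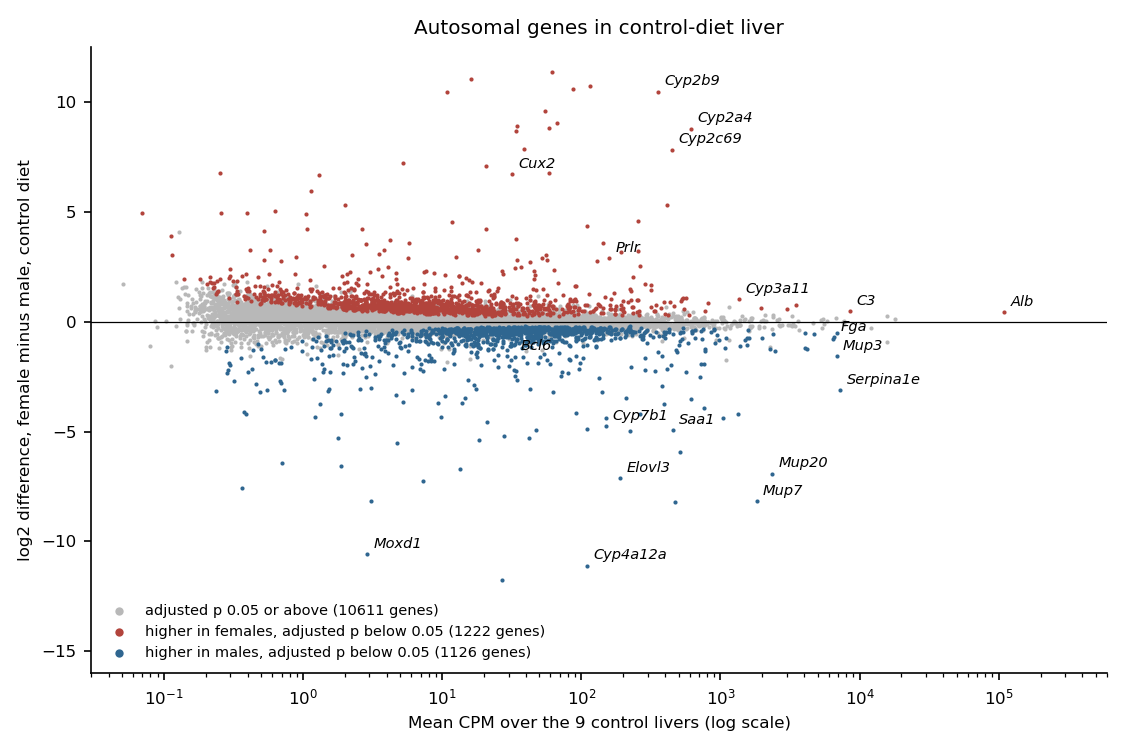
Each point is 1 tested autosomal gene, with its mean level over the 9 control libraries in CPM (log axis) against its fitted difference, female minus male, in log2. Red and blue points are the 1222 genes called higher in females and the 1126 called higher in males, grey points were not called, and differences larger than 8 on the log2 scale occur in both directions.

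The called genes made up a sizeable part of all liver messenger RNA. Genes called higher in females gave 17.8% to 20.95% of the counts in female libraries and 11.03% to 12.8% in male libraries. Genes called higher in males gave 10.6% to 11.1% in females and 17.7% to 21.6% in males. These shares describe genes chosen by the same counts and are no further test. By autosome, the called share ranged from 15.6% on chromosomes 2 and 17 to 22.7% on chromosome 1, around the 18.1% for all autosomal genes. The at least 2-fold genes were most frequent on chromosome 4, with 60 of 842 tested genes (7.13%), and on chromosome 19, with 34 of 500 (6.8%). Of all tested autosomal genes, 2.69% were called at least 2-fold higher in females and 2% higher in males. The 60 on chromosome 4 include runs of 14, 7 and 5 neighbouring genes, the clusters of urinary protein and Cyp4a copies described below. Its share therefore rests in part on clusters of related copies.

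The genes with the largest female excess were close to silent in the male livers. Cyp2b9, a cytochrome P450 at chr7:26173411-26210661, lay at 793, 401, 703, 617 and 679 CPM in the 5 females and at 0.182, 0.234, 0.244 and 1.04 in the 4 males, a difference of 10.47 ± 0.97 (adjusted p = 3.05e-07). A1bg, a secreted plasma glycoprotein, lay at 201, 98.02, 186, 168 and 128 CPM in females and 0.0363, 0.0779, 0.0488 and 0.202 in males, a difference of 10.60 ± 0.95 (adjusted p = 2.50e-07). In both genes the lowest female library, female control 2, stood far above the highest male one. Cyp2a4, the steroid 15-alpha-hydroxylase, was the most abundant of the group, at 907 to 1348 CPM in females against 1.40 to 3.30 in males (8.79 ± 0.88, adjusted p = 9.76e-07).

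Enzymes that conjugate or oxidise small molecules filled most of the list of the 12 largest female excesses. Sult2a2, a sulfotransferase of steroids and bile acids, lay at 23.03 to 176 CPM in females and at 0 to 0.269 in males (9.58 ± 1.49, adjusted p = 1.67e-04), and its female libraries differed among themselves more than those of the P450s. Sult3a1, another sulfotransferase, lay at 6.27 to 29.4 CPM in females, and its single count in the 4 male libraries gave a ratio of 2021-fold (95% counting interval 362 to 79851). Cyp3a41a had likewise 1 male count and a ratio of 3033-fold (95% counting interval 544 to 119818), while its neighbour Cyp3a16 lay at 18.3 to 179 CPM in females and 0.101 to 0.436 in males (8.79 ± 0.75). Hao2, a peroxisomal hydroxy-acid oxidase, lay at 47.5 to 78.6 CPM in females and 0.0389 to 0.303 in males (8.69 ± 0.74, adjusted p = 1.39e-07). Acot3, a peroxisomal acyl-CoA thioesterase, lay at 31.3 to 134 and 0 to 0.337 CPM (8.91 ± 1.01), and Slc22a26, an organic anion transporter, at 72.2 to 164 and 0 to 0.399 CPM (9.06 ± 0.91). Cyp2b13, also among the largest, is described with its gene cluster below. The fitted differences of genes with few male counts depend on the model's prior count; the 95% intervals of the count ratios cover counting error only.

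The largest male excesses were those of fatty acid enzymes and major urinary proteins. Cyp4a12a, a fatty acid omega-hydroxylase at chr4:115299046-115332815, lay at 178, 280.2, 213 and 319.7 CPM in the 4 males and at 0.236, 0.263, 0.0296, 0.0297 and 0.0347 in the 5 females, a difference of -11.09 ± 0.99 (adjusted p = 2.22e-07). Its copy Cyp4a12b lay at 48.99 to 75.3 CPM in males, and the 2 counts in all female libraries together gave a ratio of 4510.3-fold (95% counting interval 1248 to 37251). Elovl3, an elongase of very long chain fatty acids, lay at 632, 287, 296 and 481 CPM in males and 4.35, 3.81, 3.94, 2.14 and 1.28 in females, a difference of -7.10 ± 0.85 (adjusted p = 9.53e-06). No female library overlapped a male one in any of these genes. Moxd1, a relative of dopamine beta-hydroxylase, was detected in all 4 males at 2.36 to 14.6 CPM and in no female library, so that against a floor of 3 counts over the female group it was at least 320.3-fold higher in males.

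Among the major urinary proteins, small lipocalins that carry pheromones, Mup20 (darcin) lay at 6057, 5935, 5368 and 3505 CPM in males and at 40.1, 82.5, 28.6, 23.4 and 42.5 in females, a difference of -6.91 ± 0.76 (adjusted p = 3.15e-06). Mup7 lay at 3692 to 4709 CPM in males against 6.81 to 20.5 in females (-8.18 ± 1.09), and Mup14 at 995 to 1204 against 1.10 to 4.86 (-8.20 ± 1.01). Mup11 and Mup8 differed by -5.94 ± 0.99 and -7.25 ± 0.86. The near-identical Mup genes share reads, as do close pairs such as Cyp4a12a and Cyp4a12b or the copies of Cyp3a41a, so the split of counts between such copies is uncertain. Scara5, a scavenger receptor that binds ferritin, lay at 20.3 to 38.3 CPM in males and 0.0892 to 0.460 in females (-6.70 ± 0.54, adjusted p = 6.62e-08), and the carboxylesterase Ces2b at 2.32 to 17.9 and 0.164 to 0.326 (-5.51 ± 0.60), with male control 4 the lowest male. Nat8f5, an N-acetyltransferase family member, had 3 counts over the female libraries and 4.39 to 9.81 CPM in males, a ratio of 348-fold (95% counting interval 119 to 1694).

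**Figure D2:**
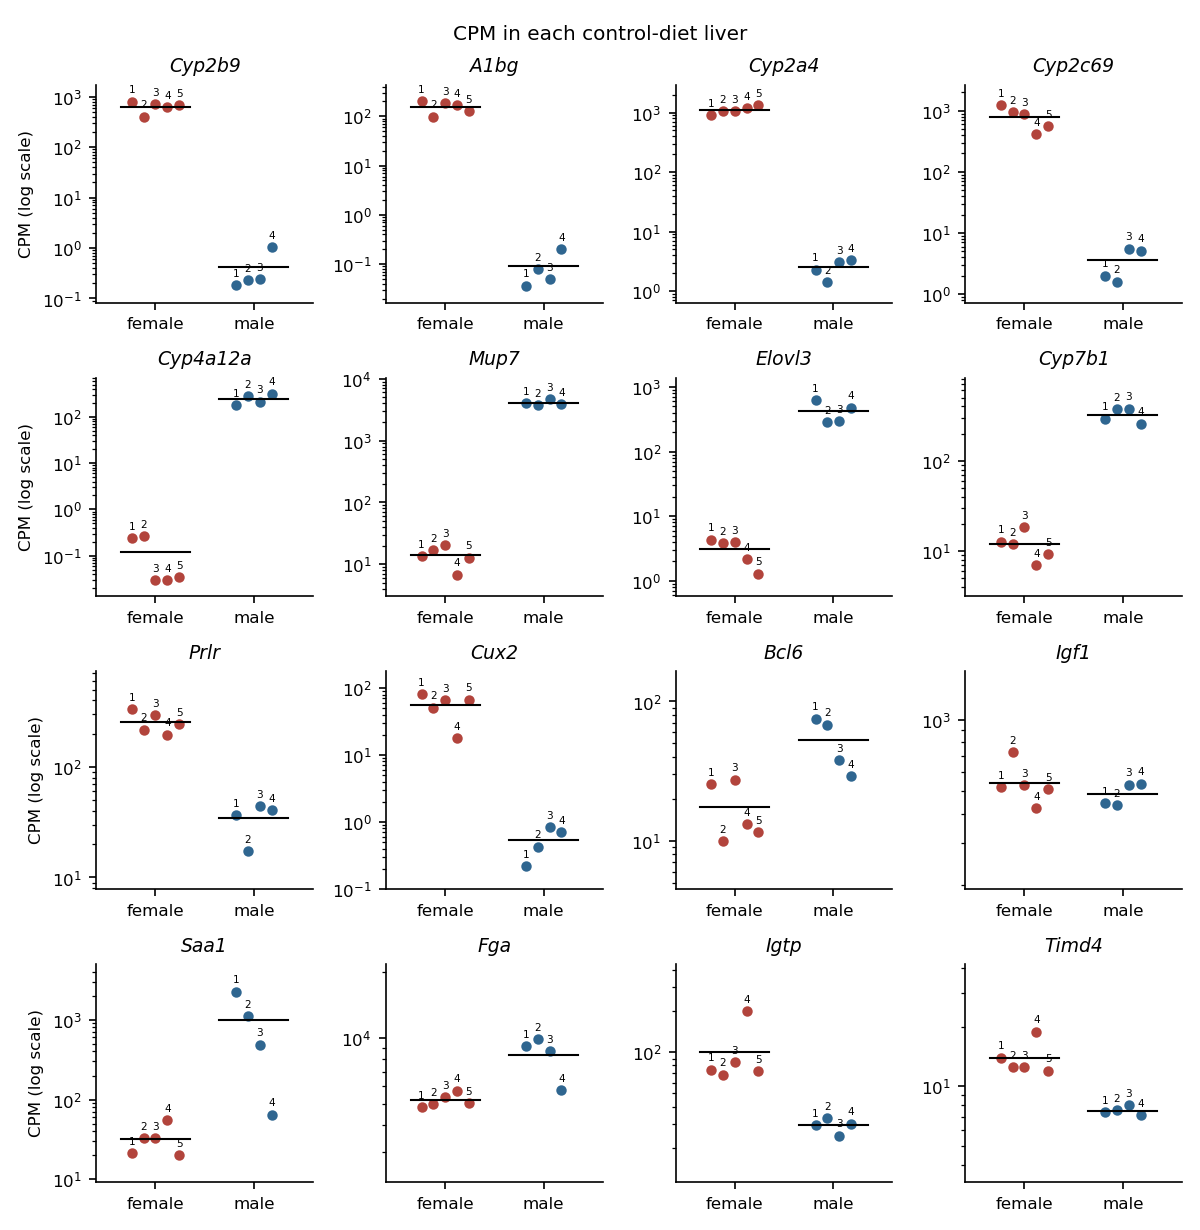
The level of 16 genes is shown in each of the 5 female (red) and 4 male (blue) control libraries in CPM on a log axis, 1 numbered point per library, with a line at the mean of each sex. The points of the 2 sexes lie far apart in Cyp2b9 and Cyp4a12a and overlap in Igf1, whereas male control 4 lies near the females in Saa1 and Fga and female control 4 is the highest female in Igtp and Timd4.

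Genes of 1 direction often stood side by side in families of related copies, which were counted as runs of neighbouring called genes. On chromosome 7 between 25897620 and 26939384 (GRCm38 throughout), 7 neighbouring genes of the Cyp2b, Cyp2a and Cyp2g families were all higher in females. Cyp2b13 in this run lay at 136, 63.04, 112, 130.2 and 116 CPM in the 5 females and at 0, 0, 0.0488 and 0.101 in the 4 males. The sexes differed by 11.34 ± 1.49 (adjusted p = 2.77e-05). Cyp2b10, the classical target of the receptor CAR, was much lower, at 0.361 to 3.60 CPM in females, with 3 male counts and a ratio of 69.2-fold (95% counting interval 23.5 to 338). The urinary protein genes formed 2 runs on chromosome 4 of 7 and 14 neighbouring genes, and 20 of 21 tested Mup genes were higher in males. The Cyp3a run on chromosome 5 held 5 female-higher genes, and the Acot run on chromosome 12 held 5.

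Other clusters held neighbours of opposite direction. On chromosome 4 between 115299046 and 115579015, the male-higher Cyp4a12a and Cyp4a12b were followed by Cyp4a14, Cyp4a10 and Cyp4a31, all higher in females. Cyp4a14 lay at 1176, 997, 313, 339 and 834 CPM in females and 4.50, 11.3, 4.64 and 53.7 in males. This gave a difference of 5.29 ± 0.68 (adjusted p = 2.22e-05), with male control 4 the highest male. On chromosome 19 the organic anion transporters Slc22a26 and Slc22a27 were higher in females, whereas Slc22a28 was higher in males, at 20.5, 19.6, 25.4 and 18.1 CPM against 0.803, 2.56, 0.651, 0.149 and 0.972. The fitted difference was -4.34 ± 0.65 (adjusted p = 1.21e-04). On chromosome 3 the steroid dehydrogenase genes Hsd3b5 (-3.49 ± 0.70), Hsd3b2 (-1.15 ± 0.19) and Hsd3b3 (-0.74 ± 0.16) were higher in males. Beyond them in the same run, Hsd3b1 (1.20 ± 0.41, adjusted p = 0.045) and Hao2 were higher in females, but Hsd3b1 was under 8 CPM and was called in 2 of 9 fits that left out 1 control library, those without female control 4 or 5.

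**Figure D3:**
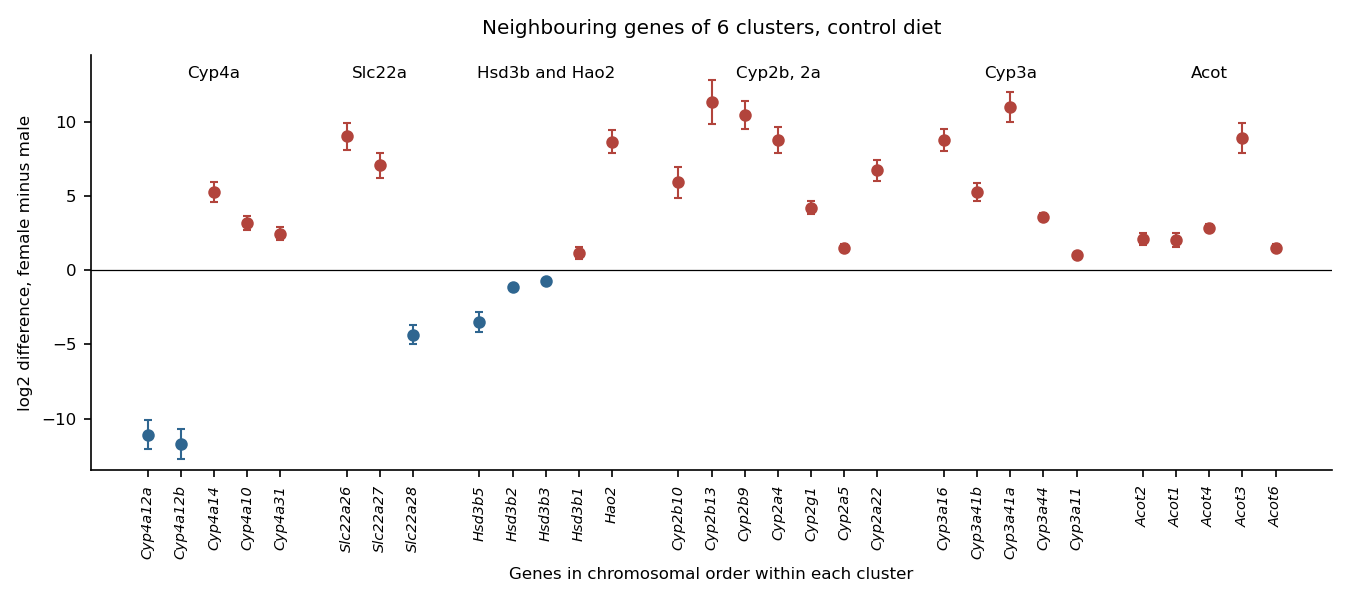
Fitted differences, female minus male in log2, are shown as points with whiskers of 1 standard error for neighbouring tested genes of 6 clusters, in chromosomal order within each. All points of the Cyp2b and Cyp2a, Cyp3a and Acot clusters lie above 0, while the Cyp4a, Slc22a and Hsd3b clusters hold points on both sides. The points of Cyp3a41a, Cyp4a12b and Cyp2b10 are fitted values that rest on 1, 2 and 3 counts in the lower group. Cyp2b13, Acot3 and Slc22a26 also had male libraries at 0.

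Sequences of the 250 bases before the start of transcription are shown for 8 sex-biased genes. Among them are neighbours of opposite direction and the repressor gene Bcl6. The 8 were chosen by no stated rule, so the matches in them do not stand for sex-biased genes at large. They come from RefSeq on GRCm38.p6, read 5′ to 3′ on the strand of the gene. Capitals mark a match to TTCNNNGAA, the core of the STAT5 consensus, or to ATTGAT on either strand, a core bound by CUX and HNF6 factors; in the Cyp2b pair capitals instead mark the bases that differ between the copies.
Slc22a26, chr19:7802668-7802917, minus strand: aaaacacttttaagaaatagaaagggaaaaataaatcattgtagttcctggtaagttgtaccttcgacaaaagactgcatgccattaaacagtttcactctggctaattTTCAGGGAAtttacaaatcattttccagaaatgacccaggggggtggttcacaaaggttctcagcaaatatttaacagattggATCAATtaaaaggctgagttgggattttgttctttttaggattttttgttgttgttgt
Slc22a28, chr19:8131983-8132232, minus strand: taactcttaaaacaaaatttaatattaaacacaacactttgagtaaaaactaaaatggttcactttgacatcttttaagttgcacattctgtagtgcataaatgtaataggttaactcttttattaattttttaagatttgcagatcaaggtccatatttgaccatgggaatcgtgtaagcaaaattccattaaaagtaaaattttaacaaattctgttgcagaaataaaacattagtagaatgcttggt
Sult3a1, chr10:33857472-33857721, plus strand: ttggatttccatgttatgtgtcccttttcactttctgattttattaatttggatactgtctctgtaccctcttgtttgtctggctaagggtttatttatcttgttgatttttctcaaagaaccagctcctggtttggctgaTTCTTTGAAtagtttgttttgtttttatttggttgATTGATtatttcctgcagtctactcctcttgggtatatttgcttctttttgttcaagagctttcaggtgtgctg
A1bg, chr15:60921271-60921520, minus strand: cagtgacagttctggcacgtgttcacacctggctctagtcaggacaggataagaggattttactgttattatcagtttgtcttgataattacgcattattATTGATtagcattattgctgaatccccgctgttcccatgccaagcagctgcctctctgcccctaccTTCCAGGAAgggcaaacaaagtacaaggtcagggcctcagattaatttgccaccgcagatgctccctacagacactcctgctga
Cyp2b9, chr7:26173159-26173408, plus strand: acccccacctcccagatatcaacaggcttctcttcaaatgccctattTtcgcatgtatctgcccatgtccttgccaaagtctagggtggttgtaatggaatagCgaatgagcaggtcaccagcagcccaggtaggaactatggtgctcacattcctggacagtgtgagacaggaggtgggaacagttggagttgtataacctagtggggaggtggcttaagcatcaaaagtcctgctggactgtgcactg
Cyp2b13, chr7:26061245-26061494, plus strand: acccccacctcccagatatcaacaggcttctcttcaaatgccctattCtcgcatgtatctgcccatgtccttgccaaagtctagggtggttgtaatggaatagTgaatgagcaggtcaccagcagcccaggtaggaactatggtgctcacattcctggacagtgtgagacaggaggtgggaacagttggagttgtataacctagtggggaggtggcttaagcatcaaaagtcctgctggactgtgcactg
Mup7, chr4:60070476-60070725, minus strand: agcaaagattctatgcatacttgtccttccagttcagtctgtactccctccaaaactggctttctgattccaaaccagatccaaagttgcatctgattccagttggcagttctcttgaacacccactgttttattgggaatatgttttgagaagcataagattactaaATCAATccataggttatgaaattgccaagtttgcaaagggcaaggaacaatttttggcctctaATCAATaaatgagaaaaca
Bcl6, chr16:23981284-23981533, minus strand: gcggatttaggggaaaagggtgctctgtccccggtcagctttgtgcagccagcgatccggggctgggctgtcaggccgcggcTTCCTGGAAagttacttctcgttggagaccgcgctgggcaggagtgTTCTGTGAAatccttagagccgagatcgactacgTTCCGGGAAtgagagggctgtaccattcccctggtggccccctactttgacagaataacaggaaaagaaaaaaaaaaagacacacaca

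The windows of Cyp2b9 and Cyp2b13 were identical at 248 of 250 bases (99.2%), and neither held a match, so that their shared female excess went with nearly the same letters. The windows of Slc22a26 and Slc22a28, neighbours of opposite direction, aligned at 51.4% identity, and no match lay in that of Slc22a28. In the female-higher genes Slc22a26, Sult3a1 and A1bg, TTCNNNGAA began 141, 109 and 84 bases before the start, and ATTGAT 58, 74 and 150 bases before it. The male-higher Mup7 held ATTGAT at 82 and 19 bases before its start, and this Bcl6 window held TTCNNNGAA 3 times, at 168, 122 and 88 bases. Over all tested autosomal genes with a window, 753 of 10092 (7.46%) held TTCNNNGAA and 502 (4.97%) held ATTGAT; the shares were 30 of 258 (11.6%) and 26 of 258 (10.1%) for the at least 2-fold female-higher genes, and 12 of 199 (6.03%) and 24 of 199 (12.1%) for the male-higher ones. The median GC content of the windows was 54.0% and 55.6% in the female-higher and male-higher sets and 59.6% in all, and the part of base composition in the shares was not tested. A match is a description of the letters and not evidence of binding.

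Of the 17 tested genes of the growth hormone and IGF1 axis, 2 were higher in females and 3 in males, with a median of 0.10 against -0.03 for all autosomal genes and a background of 18.1% called. Prlr, the prolactin receptor, stood out at 334, 217, 293, 195 and 243 CPM in the 5 females and 36.6, 17.2, 44.1 and 40.7 in the 4 males. Females minus males gave 2.89 ± 0.24 (adjusted p = 1.11e-07). Igfbp1, a binding protein of IGF1, lay at 33.1, 34.6, 31.7, 16.6 and 35.9 CPM in females and 788, 121, 154 and 54.3 in males. The log2 difference was -3.20 ± 0.62 (adjusted p = 0.0013); male control 1 was by far the highest, and without it the difference was -1.83, still called. Ghr, the growth hormone receptor, was 333 to 403 CPM in females and 451 to 542 in males (-0.46 ± 0.15, adjusted p = 0.036), without overlap. The hormone Igf1 itself did not pass the test, at 421 to 730.0 CPM in females and 434 to 535 in males (0.16 ± 0.17, adjusted p = 0.57), and Jak2 lay at 13.99 to 18.2 and 13.7 to 20.7 CPM. Stat5b lay at 57.9 to 94.1 and 69.3 to 92.7 CPM and Socs2, a feedback inhibitor of the pathway, at 17.8 to 102 and 10.7 to 73.7 CPM, with the groups overlapping in both. The remaining calls were Igfals, the acid-labile subunit that carries IGF1 (0.58 ± 0.19, adjusted p = 0.041), and Stat3 (-0.48 ± 0.14, adjusted p = 0.021). These smaller calls depended on single libraries. With each control library left out in turn, Ghr was -0.49 to -0.40 and was called in 1 of 9 fits, the fit without female control 5 (largest adjusted p = 0.12). Igfals was 0.51 to 0.65 and lost its call without male control 1, 2 or 3 or female control 1, 2 or 5 (largest adjusted p = 0.094). Stat3 was -0.58 to -0.34 and lost its call without male control 1 or 2 or female control 2 or 3 (largest adjusted p = 0.12).

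Of 17 transcription factors of the liver that were tested, 5 were higher in females and 4 in males (52.9% called, against 18.1% of all autosomal genes), with a median of -0.13; with library size alone the male-higher count was 2, and it was also 2 without male control 3. Cux2, a repressor of the male programme, lay at 81.8, 50.8, 65.97, 17.9 and 66.9 CPM in females and 0.218, 0.428, 0.830 and 0.707 in males. That is a difference of 6.71 ± 0.91 (adjusted p = 3.75e-05), with female control 4 the lowest female. Trim24, a nuclear coregulator, lay at 94.3, 72.4, 75.4, 49.7 and 60.8 CPM in females and 16.9, 14.4, 11.4 and 13.6 in males. The difference was 2.32 ± 0.19 (adjusted p = 1.11e-07). Tox, a high mobility group protein, differed by 2.89 ± 0.27, and Esr1, the oestrogen receptor, lay at 21.2 to 40.9 against 10.6 to 15.7 CPM (1.19 ± 0.23, adjusted p = 0.0015). Bcl6 was higher in males, at 75.2, 68.3, 37.7 and 29.1 CPM against 25.6, 9.89, 27.5, 13.2 and 11.6 in females, a difference of -1.59 ± 0.41 (adjusted p = 0.011); the groups did not overlap, although the lowest male and the highest female were close. Cebpb, a factor of the acute-phase response, was 64.9, 29.1, 28.8 and 14.9 CPM in males and 8.83, 14.3, 14.4, 25.8 and 8.19 in females. The sexes differed by -1.26 ± 0.34 (adjusted p = 0.013); without male control 1 the difference was -0.73 and not called. The remaining calls, Hnf4a (-0.44), Nfil3 (-0.69) and Prox1 (0.68), were within 2-fold, and each was lost without at least 1 control library. Hnf4a was lost without male control 1, 2 or 3 or female control 1 or 2 (largest adjusted p = 0.12), Nfil3 without any 1 of the 4 male control libraries or of female controls 3, 4 and 5 (0.23) and Prox1 without male control 2 or 3 or female control 5 (0.11). Onecut1, which encodes HNF6, overlapped widely at 3.83 to 14.3 and 1.63 to 46.8 CPM (adjusted p = 0.068); it was called, at -2.05, without male control 1 and, at -1.99, without female control 5.

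Of 31 nuclear receptors 5 were higher in females and 1 in males, with a median of 0.07; the 19.4% called was close to the 18.1% of all autosomal genes. Nr1i3, which encodes CAR, a sensor of drugs and steroids, lay at 68.8, 66.7, 66.4, 49.8 and 63.5 CPM in the 5 females and 20.9, 14.3, 26.1 and 28.6 in the 4 males. This gave a difference of 1.49 ± 0.17 (adjusted p = 4.01e-06). Pparg, the adipogenic receptor, lay at 4.01 to 6.90 and 1.56 to 4.07 CPM with a slight overlap (1.12 ± 0.27, adjusted p = 0.0072). Rxrg (0.79 ± 0.20) and Rarg (0.61 ± 0.16), both under 12 CPM, were the other female-higher members beside Esr1. The male-higher member was Nr4a1, an early-response receptor at 2.53 to 3.99 against 1.54 to 2.39 CPM (-0.74 ± 0.20, adjusted p = 0.013), which was not called without male control 1 (-0.61, adjusted p = 0.068). The fatty acid receptor Ppara (0.06 ± 0.32), the bile acid receptor Nr1h4 (0.12 ± 0.16) and the pregnane X receptor Nr1i2 (0.14 ± 0.15) did not pass the test, with adjusted p of 0.92, 0.64 and 0.56.

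Steroid metabolism split almost evenly: of 29 genes tested, 9 were higher in females and 10 in males, with a median of -0.11, so that 65.5% were called against 18.1% of all autosomal genes. In 17 of the 29 the sexes did not overlap (58.6%, against 14.9%). Cyp7b1, the oxysterol 7-alpha-hydroxylase, lay at 292, 373, 376 and 257 CPM in males and 12.8, 11.9, 18.5, 7.04 and 9.34 in females. The fitted difference was -4.77 ± 0.47 (adjusted p = 7.73e-07). Cyp17a1, the 17-alpha-hydroxylase of androgen synthesis, went the other way, at 218, 121, 206, 159.6 and 249 CPM in females and 7.74, 9.26, 7.96 and 11.8 in males. Females minus males gave 4.37 ± 0.40 (adjusted p = 2.70e-07). Both genes separated the sexes in all 9 libraries. Srd5a1, the steroid 5-alpha-reductase, was higher in males (140.3 to 198 against 30.999 to 42.9 CPM, -2.17 ± 0.28), as was Cyp2d9, a testosterone 16-alpha-hydroxylase (1501 to 1639 against 50.2 to 188 CPM, -3.91 ± 0.45). Hsd17b6, a 17-beta and retinol dehydrogenase (289.7 to 628 against 102 to 207 CPM, 1.68 ± 0.27), and Serpina6, the corticosteroid carrier of plasma (256 to 533 against 100.1 to 147 CPM, 1.71 ± 0.22), were higher in females.

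In bile acid synthesis, 2 of 14 genes were higher in females and 5 in males (9.43% and 8.69% of all autosomal genes were), with a median of -0.25; the male-higher count was 3 with library size alone and without male control 1 or male control 3, and the female-higher count was 1 without male control 2. Scp2, the peroxisomal thiolase of side chain shortening, lay at 3342, 3748, 3891 and 3773 CPM in males and 1459, 1842, 1248, 1169.7 and 1622 in females. The log2 difference was -1.33 ± 0.16 (adjusted p = 7.22e-06). The rate-limiting Cyp7a1 was spread within each sex, at 40.3, 26.2, 34.3, 19.1 and 204 CPM in females and 15.7, 28.2, 27.3 and 43.2 in males, and did not pass the test (adjusted p = 0.24). Transporters of bile acids and organic anions divided 3 to 3 among 18 (33.3% called). Abcg2, the breast cancer resistance protein of the canalicular membrane, lay at 97.9 to 105 CPM in males and 23.1 to 30.8 in females (-1.90 ± 0.15, adjusted p = 4.99e-08), and Slc10a2, a sodium-dependent bile acid carrier, at 18.4 to 56.1 and 2.31 to 9.13 (-2.89 ± 0.35). The uptake carriers Slco1a1 and Slco1a4 went in opposite directions. Slco1a1 lay at 412, 362, 493 and 573 CPM in males and 128, 220.4, 164, 51.03 and 161 in females. That is a difference of -1.67 ± 0.47 (adjusted p = 0.018). Slco1a4 lay at 62.1 to 126 CPM in females and 16.2 to 23.9 in males (2.34 ± 0.38). The Slco1a1 call was lost, at -1.58 and adjusted p = 0.051, when all libraries with label numbers of the second series were left out. The efflux pumps Abcc3 (1.62 ± 0.20) and Abcb1a (2.38 ± 0.52) were higher in females.

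Drug-metabolising enzymes leaned to females, with 11 of 29 higher in females and 5 in males (55.2% called, against 18.1% of all autosomal genes), although the median was only 0.08; the male-higher count was 3 without male control 3 or female control 4 and with library size alone. Cyp3a11, the main drug-oxidising P450 of mouse liver, lay at 2469, 1605, 1603, 1325 and 1742 CPM in females and 953, 875, 894 and 704 in males. The difference was 1.03 ± 0.20 (adjusted p = 0.0012). Por, the reductase that supplies all microsomal P450s with electrons, lay at 221 to 344 and 125 to 179 CPM (0.87 ± 0.21, adjusted p = 0.0065). Gstt3, a theta-class glutathione transferase, differed by 2.82 ± 0.32. On the male side Aox3, an aldehyde oxidase, lay at 595 to 872 CPM against 135 to 196 (-2.14 ± 0.21, adjusted p = 6.68e-07), and Gstp1, the pi-class glutathione transferase, at 642 to 928 against 49.3 to 78.9 (-3.76 ± 0.28, adjusted p = 3.48e-08). By family, the female-higher against male-higher counts were 7 and 0 of 13 Cyp2c genes, 6 and 0 of 9 Cyp3a, 0 and 3 of 9 Cyp2d, 8 and 1 of 14 Sult, 7 and 2 of 20 Gst, and 2 and 5 of 16 Ugt genes. Counts of close copies within the P450, sulfotransferase and carboxylesterase families may be shared between them.

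Among 39 targets of PPARalpha, the receptor that drives fatty acid oxidation, 13 were higher in females and 2 in males (38.5% called, against 18.1% of all autosomal genes), with a median of 0.24. The highest of these were the microsomal omega-hydroxylases and the peroxisomal and cytosolic thioesterases. Cyp4a10 lay at 622, 518, 262, 226 and 498 CPM in females and 16.3, 34.3, 20.9 and 114 in males. The sexes differed by 3.19 ± 0.47 (adjusted p = 9.32e-05). Acot4 lay at 66.8 to 126 CPM in females and 7.94 to 18.5 in males (2.88 ± 0.27, adjusted p = 4.50e-07). Male control 4 was the highest male in both. Aldh3a2, a fatty aldehyde dehydrogenase (1.39 ± 0.19), Vnn1, a pantetheinase (1.495 ± 0.27), and Ehhadh, the peroxisomal bifunctional enzyme (1.01 ± 0.31), were also higher in females, the last in 5 of 9 fits that left out 1 control library and not without male control 1, 2 or 3 or female control 5. The male-higher members were Angptl4, an inhibitor of lipoprotein lipase (-1.17 ± 0.31), which was not called without male control 1 (-0.99) or male control 3 (-1.03), and Fitm1, a lipid droplet protein (-1.41 ± 0.25). In fat synthesis 3 of 25 genes were higher in each sex. Lpin1, a phosphatidate phosphatase, lay at 686, 843, 779 and 104 CPM in males and 77.9, 153, 129.5, 150.4 and 115 in females. This gave a difference of -2.27 ± 0.47 (adjusted p = 0.0025), with male control 4 inside the female range. Pnpla3, a lipid droplet lipase, differed by 2.30 ± 0.56. The female-higher count of this list was 1 without male control 2 or female control 4. Of 25 lipoprotein genes 4 were higher in females and 3 in males (28.0% called), but 9 and 0 with library size alone; the male-higher count was 1 without male control 2 or 3. Vldlr, the VLDL receptor, lay at 2.83 to 8.97 CPM in females and 0.399 to 1.04 in males (3.26 ± 0.38), and Angptl8, an insulin-responsive regulator of lipoprotein lipase, at 137 to 397 and 22.5 to 44.8 (2.75 ± 0.33). The smaller female-higher calls were Apoc2, a cofactor of lipoprotein lipase (0.66 ± 0.22), and hepatic lipase, Lipc (0.44 ± 0.10). The male-higher calls were Apob, the structural protein of VLDL (-0.49 ± 0.14), lipoprotein lipase, Lpl (-0.61 ± 0.19), and the sorting receptor Sort1 (-0.61 ± 0.17). Apoc2 was lost without male control 1 or 2 or female control 1, 2 or 3, Lpl without male control 1, 2 or 3 or female control 1, 3, 4 or 5, Apob without male control 4, and Sort1 without male control 2 or 3. In cholesterol synthesis 0 genes of 25 were higher in females in this edgeR test (4 at an unadjusted p below 0.05, 1 by DESeq2) and 2 in males, with a median of 0.16; the 2 calls were 0 without male control 1 and 1 without 6 other single control libraries.

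Most clotting genes were not called, and most calls were differences within 2-fold. Of 17 procoagulant genes 1 was higher in females and 3 in males (median 0.04), of 12 anticoagulant genes 1 and 4 (median -0.18), and of 12 fibrinolysis genes 0 and 3 (median -0.28; toward females 1 at an unadjusted p below 0.05 and 0 by DESeq2), against the background of 9.43% and 8.69%. The 3 male-higher procoagulant genes encode the chains of fibrinogen. Fga lay at 9131, 9828, 8668 and 5769 CPM in the 4 males and 4822, 4966, 5374, 5732 and 5050.3 in the 5 females. The fitted difference was -0.69 ± 0.15 (adjusted p = 0.004). Male control 4 lay just above the highest female in Fga and within the female range in Fgb (-0.52 ± 0.13, adjusted p = 0.0084) and Fgg (-0.58 ± 0.14, adjusted p = 0.0093). The Fgb call was lost without male control 2 (-0.42, adjusted p = 0.052). Prothrombin F2 (2106 to 2225 and 1982 to 2179 CPM), F10 (578 to 685 and 508 to 699.6 CPM), F12 (595 to 688 and 615 to 746 CPM) and the inhibitor antithrombin, Serpinc1 (2620.3 to 2774 and 2392 to 2585 CPM), did not pass the test. F11 lay at 85.03 to 145 CPM in females and 153 to 211 in males, without overlap, and did not pass it either (-0.54 ± 0.27, adjusted p = 0.17).

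The male excess of C4bp was 634 to 823 against 475 to 582 CPM (-0.53 ± 0.12, adjusted p = 0.0036). That of Mug1, a broad protease inhibitor of the alpha-2-macroglobulin family, was 5329 to 6898 against 1572 to 3286 CPM (-1.21 ± 0.29, adjusted p = 0.0064), and A2m itself lay under 3 CPM in every library (-3.10 ± 0.52). Factor VII, F7, was the female-higher procoagulant gene, at 137 to 175 against 109 to 133 CPM (0.38 ± 0.12, adjusted p = 0.034), and Tfpi, the inhibitor of the tissue factor pathway, the female-higher anticoagulant gene, at 7.94 to 9.74 against 3.00 to 8.35 CPM (0.75 ± 0.22, adjusted p = 0.023). The small calls in these lists were not stable to leaving out 1 control library. F7 was 0.36 to 0.46 and lost its call without male control 2, 3 or 4 or female control 1, 3 or 4 (largest adjusted p = 0.078). Tfpi lost its call without male control 1 or 2 (largest adjusted p = 0.085), and Cpb2, the carboxypeptidase that slows fibrinolysis (-0.47 ± 0.13), without male control 1, 2 or 3 (0.083). The 4 anticoagulant calls higher in males were 1 without male control 2, female control 1 or female control 2. They were 2 without male control 1, male control 3 or female control 4, and 1 with library size alone. C4bp, Mug1 and A2m were each called in all 9 fits that left out 1 control library. At most 1 of these genes can therefore be among the 4, and the others of the 4 are not named here. Plasminogen, Plg, lay at 3002 to 3423 and 3026 to 3831 CPM (-0.11 ± 0.12, adjusted p = 0.56).

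Acute-phase genes, which hepatocytes switch on under inflammatory cytokines, were higher in males in 10 of 28 cases and in females in 1 (39.3% called, against 18.1% of all autosomal genes), with a median of -0.41, and the males differed widely among themselves. With library size alone 8 were higher in males and 5 in females. The single female-higher call was 0 without male control 2 or female control 3 or 4, and the count was 2 without female control 2 or 5. Saa1, a serum amyloid A, lay at 2254, 1117, 489 and 64.7 CPM in the 4 males and 21.2, 32.6, 32.5, 54.9 and 20.1 in the 5 females. Females minus males gave -4.92 ± 0.63 (adjusted p = 2.10e-05). Hp, haptoglobin, lay at 10023, 7441, 5012 and 2367 CPM in males and 2557, 3229, 2471, 2489 and 2232 in females. The log2 difference was -1.26 ± 0.25 (adjusted p = 0.0019). Male control 1 was the highest male in both, and male control 4 lay just above the females in Saa1 and among them in Hp. Saa2 (-4.38 ± 0.70), Saa3 (-3.08 ± 0.60), Saa4 (-2.28 ± 0.30) and Steap4, a metalloreductase (-2.07 ± 0.35), had the same order of males. Without male control 1, 6 genes were higher in males and 3 in females, Saa3 moved to -1.39, and Lcn2, lipocalin 2, went from -2.22 to -0.42 and lost its call. The summed level of the list was 44932.6 to 66874.2 CPM in females and 52323.2 to 85630.7 in males. The same males differed in neutrophil markers, whose summed level was 5.86 to 8.23 CPM in females and 4.38 to 36.8 in males; 4 of 4 tested markers, S100a8, S100a9, Retnlg and Csf3r, were higher in males, and 0 were called without male control 1, and Ly6g was at 0 throughout. The part of either in the other was not tested. The female-higher Hamp encodes hepcidin, the regulator of iron export (1.05 ± 0.31, adjusted p = 0.023). With single libraries left out it was 0.89 to 1.23 and lost its call without male control 1 or 2 or female control 3 or 4 (largest adjusted p = 0.08). Its copy Hamp2 lay at 310.3, 217, 427, 455 and 192 CPM in females and 49.4, 17.9, 34.96 and 39.3 in males. That is a difference of 3.18 ± 0.46 (adjusted p = 8.40e-05).

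In the complement system, 13 of 29 genes were higher in males and 6 in females (65.5% called, against 18.1% of all autosomal genes), with a median of -0.31. The sexes did not overlap in 18 (62.1%, against 14.9%). The male-higher genes included the terminal components that form the membrane attack complex. C6 lay at 474, 703, 549.7 and 504 CPM in males and 27.1, 39.6, 27.3, 26.1 and 30.02 in females. The difference was -4.22 ± 0.43 (adjusted p = 1.37e-06). C9 lay at 894 to 1515 CPM in males and 211 to 244 in females (-2.51 ± 0.39), C8a at 971 to 1444 and 254 to 473 (-1.93 ± 0.27), C8b at 569 to 973 and 128 to 253 (-1.99 ± 0.32), and Hc, which encodes C5, at 1110.4 to 1559 and 706 to 925 (-0.75 ± 0.14). In each of these 5 genes every male library, male control 4 included, was above every female one. Susd4, a complement inhibitor, differed by -3.47 ± 0.47. On the female side stood Mbl2, a lectin that starts the cascade, at 850.3, 814, 767, 680.3 and 608 CPM against 385, 288, 373 and 352. The sexes differed by 1.09 ± 0.12 (adjusted p = 3.15e-06). The central component C3 (0.47 ± 0.14, adjusted p = 0.022) and C1qa (0.78 ± 0.16) were also higher in females, as were C1qb and C1qc, which macrophages make. C3 was not called when the libraries of the second label series were left out (0.37, adjusted p = 0.084).

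**Figure D4:**
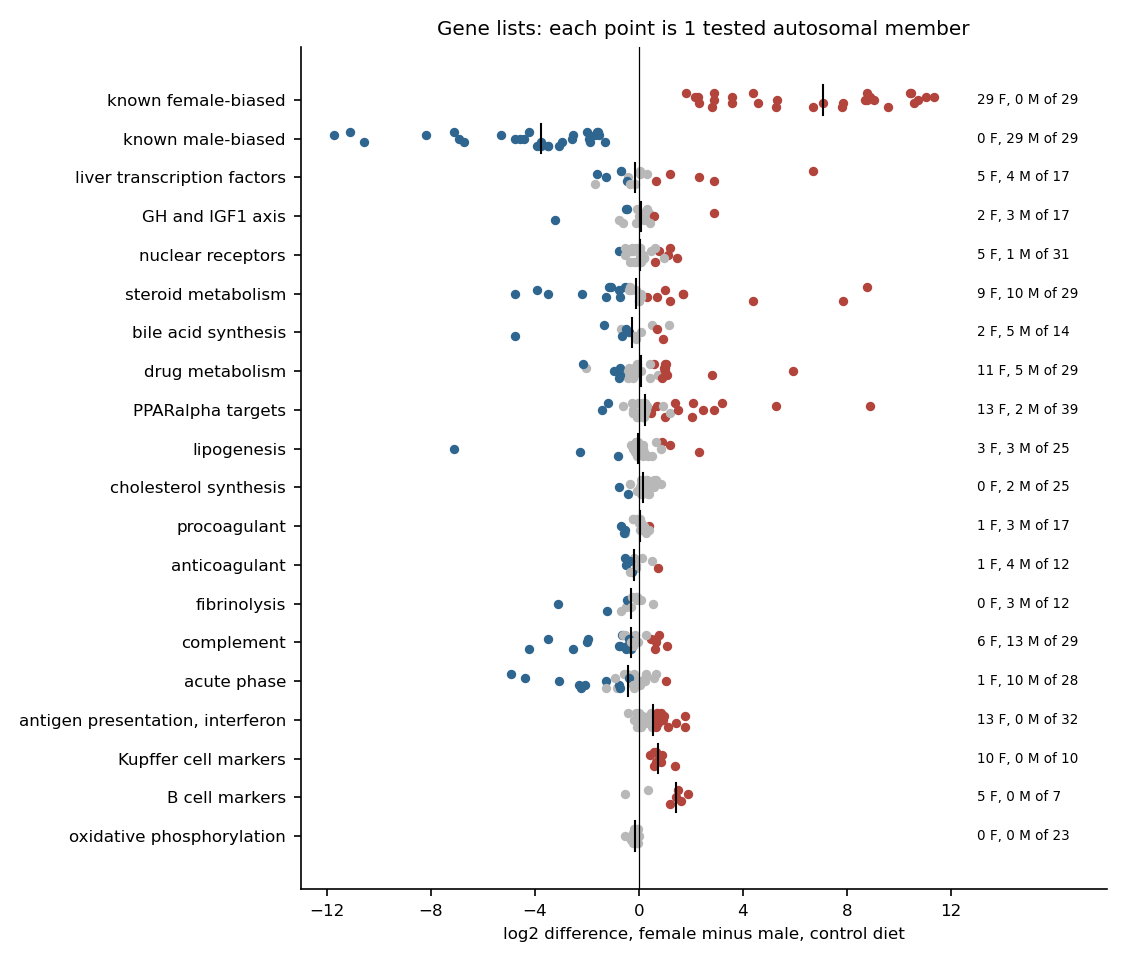
For 20 lists of genes, each tested autosomal member is a point at its fitted difference on the control diet (female minus male, log2), red where called higher in females, blue where called higher in males and grey where not called; a black tick marks the median of the list and the counts called are printed at the right. The Kupffer cell markers lie to the right of 0, oxidative phosphorylation lies close to 0 with no called member, and steroid metabolism spreads widely to both sides; the 2 lists at the top are of genes known for sex bias.

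Markers of Kupffer cells, B cells and the cells that line the sinusoids leaned to females. Of all tested autosomal genes, 9.43% were higher in females and 8.69% in males. All 10 Kupffer cell markers tested were called higher in females, with a median of 0.73 and a summed level of 714.8 to 1339.3 CPM in females against 556.8 to 586.3 in males. The count was 7 without female control 4 (median 0.54) and 8 without male control 1. It was 9 without male control 2, male control 3 or female control 3. Clec4f, the lectin that defines Kupffer cells, lay at 212, 249, 206, 278 and 193 CPM in females and 160.2, 140.4, 151 and 156 in males. This gave a difference of 0.58 ± 0.12 (adjusted p = 0.0021). Timd4, a receptor for phosphatidylserine on resident macrophages, lay at 13.98, 12.5, 12.5, 19.02 and 12.04 CPM in females and 7.37, 7.55, 8.01 and 7.14 in males. The fitted difference was 0.90 ± 0.12 (adjusted p = 4.57e-05). Female control 4 was the highest in both, and Marco, another macrophage receptor, fell from 1.41 to 0.68 and was not called without it. In bulk tissue, more cells of a type and more RNA per cell cannot be told apart. Endothelial markers were higher in females in 4 of 10 cases (median 0.72), with a sum of 473.3 to 504.5 CPM in females and of 200.1 to 461.01 in males, male control 4 being the highest male; without it 8 were called. Stellate cell markers were higher in 4 of 10 (median 0.47, 2 without male control 1 or male control 2). B cell markers were low, with sums of 8.29 to 12.5 CPM in females and 4.20 to 4.72 in males, and 5 of 7 were higher in females, led by Cd79a (1.91 ± 0.30, adjusted p = 2.14e-04). Of 11 T and NK cell markers 5 were higher in females (3 without male control 1 or female control 4), while Cd4 was higher in males at 4.55 to 5.99 against 0.992 to 1.72 CPM (-1.997 ± 0.29, adjusted p = 1.02e-04). Globin and other red cell genes were higher in females in 4 of 6 (2 without male control 3), with sums of 164.2 to 412.6 and 98.3 to 152.8 CPM. Antigen presentation and interferon-induced genes were higher in females in 13 of 32 and in males in 0 (toward males 1 at an unadjusted p below 0.05 and 0 by DESeq2), with a median of 0.53. Igtp, an interferon-induced GTPase, lay at 74.5, 68.6, 84.3, 200.1 and 72.4 CPM in females and 29.4, 33.01, 24.6 and 29.97 in males. Females minus males gave 1.77 ± 0.26 (adjusted p = 8.40e-05). Gbp3, a guanylate-binding protein, lay at 16.9 to 46.7 CPM in females and 7.12 to 9.12 in males (1.76 ± 0.25). Female control 4 was again the highest female; the count of 13 was 5 without it, 8 without male control 2 and 7 without male control 3. Of 10 hepatocyte markers 4 were higher in males, Apob, Fgb, Hnf4a and Tat, and Alb in females (median -0.40); with library size alone 1 was higher in each sex, and the male-higher count was 2 without male control 1, 2 or 3 or female control 1. The part of the Kupffer, other non-hepatocyte and hepatocyte markers in these calls was not tested.

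The most abundant sex-biased genes encode plasma proteins and central enzymes. Serpina1e, an alpha-1-antitrypsin, lay at 16231, 15198, 15275 and 10509.8 CPM in males and 2069, 2553, 2361, 254 and 1007 in females. The log2 difference was -3.12 ± 0.80 (adjusted p = 0.01), with female control 4 the lowest. Mup3 lay at 9085 to 12922 CPM in males and 2415 to 5474 in females (-1.56 ± 0.33). Ces1c, a plasma carboxylesterase, lay at 4315, 3974, 4674, 4080.2 and 4259 CPM in females and 2521, 2215, 2777 and 2447 in males. That is a difference of 0.77 ± 0.10 (adjusted p = 2.23e-05). Adh1, alcohol dehydrogenase (0.60 ± 0.12), and Mat1a, the hepatic S-adenosylmethionine synthetase (0.58 ± 0.13), were higher in females. Alb, the most abundant, lay at 98785 to 141975 CPM in females and 86625 to 102511 in males with an overlap (0.43 ± 0.14, adjusted p = 0.034), and its call was lost without male control 1, male control 2, female control 1 or female control 5 (largest adjusted p = 0.083). Hpx, the haem carrier hemopexin, was -0.77, and lost its call without male control 1 (-0.52) or male control 2 (-0.65). Genes of the unfolded protein response, which copes with misfolded secreted proteins, were higher in males in 5 of 16 (median -0.43). Of all tested autosomal genes 8.69% were. The count of 5 was 1 without male control 1, 3 without male control 3 and 8 without male control 4. Of 23 oxidative phosphorylation genes encoded in the nucleus, 0 were called in this test in either direction (median -0.14); 8 had an unadjusted p below 0.05, all toward males, and DESeq2 called 1 there. Ccnd1, cyclin D1, lay at 60.7, 46.7, 43.4, 78.2 and 125 CPM in females and 12.5, 18.2, 22.8 and 12.6 in males. The difference was 2.10 ± 0.42 (adjusted p = 0.0017). Lepr, the leptin receptor, lay at 16.8 to 41.04 CPM in females and 2.10 to 4.61 in males (3.28 ± 0.42).

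The same comparison in the 10 mice on the malnourishing diet, which shares no library with the first, called 945 autosomal genes higher in females (7.29%) and 1358 higher in males (10.5%). Of the 1222 genes higher in females on the control diet, 371 (30.4%) were called in the same direction there, 39.3% of its 945 calls, and 13 in the opposite direction. Of the 1126 higher in males, 429 (38.1%) were called in the same direction, 31.6% of its 1358 calls, and 13 in the opposite one. The median difference of the at least 2-fold genes was 1.38 on the control diet and 0.53 on the malnourishing diet for female-higher genes, and -1.76 and -0.78 for male-higher genes; since the genes were chosen by their values on the control diet, smaller values in other mice are partly given by that choice. In the test of the difference between the 2 sex differences, which uses the control libraries again, 274 autosomal genes (2.11%) were called, of which 163 (1.26%) were more positive and 111 (0.857%) more negative on the control diet; without single libraries these counts were 93 to 369 and 62 to 237. The low ends came without male control 2, and female malnourished 3 (108 and 70), female malnourished 1 (72 more negative) and female control 1 (68 more negative) also lowered them, while leaving out male control 4 (369 and 225) or female control 5 (269 and 237) raised them.

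Some of the largest differences were called on both diets. Cyp4a12a differed by -10.15 ± 0.99 on the malnourishing diet (adjusted p = 2.32e-06), and Sult2a1, a hydroxysteroid sulfotransferase, by 7.86 ± 1.11 on the control diet and 7.73 ± 0.89 on the other. Elovl3 (-8.01 ± 0.90), Mup7 (-8.96 ± 1.21), Mup20 (-5.85 ± 0.71) and C8a (-2.38 ± 0.26) were also called there. Among smaller differences, Ces3a, a lipid droplet carboxylesterase (-1.25 and -2.39 ± 0.23), and Pde6c, a phosphodiesterase subunit (1.79 and 1.95 ± 0.23), were called on both diets. Other female-higher genes had a smaller difference, by the test of the difference itself. Cyp2b9 lay at 544 to 634 CPM in the 5 malnourished females and 16.5 to 438 in the 5 malnourished males (1.50 ± 0.56, adjusted p = 0.066, called at 2.00 without male malnourished 2), so that the sex difference was 8.97 ± 1.04 larger on the control diet (adjusted p = 1.26e-04). Cyp2a4 lay at 1268 to 1597 and 18.2 to 753 CPM there, with a change of 6.67 ± 0.93 (adjusted p = 4.03e-04). Cyp2c69, a P450 at 415 to 1220.4 CPM in control females against 1.60 to 5.57 in control males, lay at 77.6 to 297 and 25.9 to 102 on the malnourishing diet (6.07 ± 0.71, adjusted p = 1.26e-04). In these 3 P450s the malnourished males were above the control males, and in Cyp2c69 the malnourished females were also below the control females. Cyp3a44 (3.27 ± 0.35) and Prlr (2.48 ± 0.31) differed between the diets in the same direction.

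In Hpgd, which degrades prostaglandins, the direction itself differed, from 0.99 ± 0.13 on the control diet to -0.49 ± 0.12 on the malnourishing diet (1.49 ± 0.18, adjusted p = 1.26e-04). Rassf3, a Ras association domain protein, differed by -1.12 ± 0.13 on the control diet and 0.39 ± 0.12 on the other (-1.51 ± 0.18, adjusted p = 1.26e-04); the call on the malnourishing diet alone was lost without male malnourished 3, 4 or 5 or female malnourished 1, 2, 3 or 4. Serpine2, protease nexin 1, differed by -2.33 ± 0.19 on the control diet and -0.37 ± 0.21 on the other (-1.96 ± 0.29, adjusted p = 5.92e-04). Slco1a1 had the opposite pattern, a male excess that was larger on the malnourishing diet (-7.47 ± 0.61 against -1.67; 5.81 ± 0.73, adjusted p = 1.77e-04), with malnourished females at 0.461 to 3.18 CPM, below the 51.03 to 220.4 of control females. Of the lists, the PPARalpha targets had 13 female-higher and 2 male-higher genes on the control diet but 0 and 10 on the malnourishing diet (by edgeR and by DESeq2; 1 and 13 at an unadjusted p below 0.05), Cyp4a14 changing by 6.15 ± 0.83 (adjusted p = 2.93e-04). The 10 Kupffer cell markers called on the control diet gave 0 calls on the other by edgeR and 1 by DESeq2, with 8 at an unadjusted p below 0.05 toward females (median 0.38), and the difference between the diets was called for 0 of them. In the complement list 10 genes were higher in males and 1 in females on the malnourishing diet, of which 8 and 1 were called in that direction on the control diet too. The urinary protein Mup13 differed by -3.50 on the control diet and -8.26 ± 0.76 on the other (4.76 ± 0.89, adjusted p = 0.0048).

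**Figure D5:**
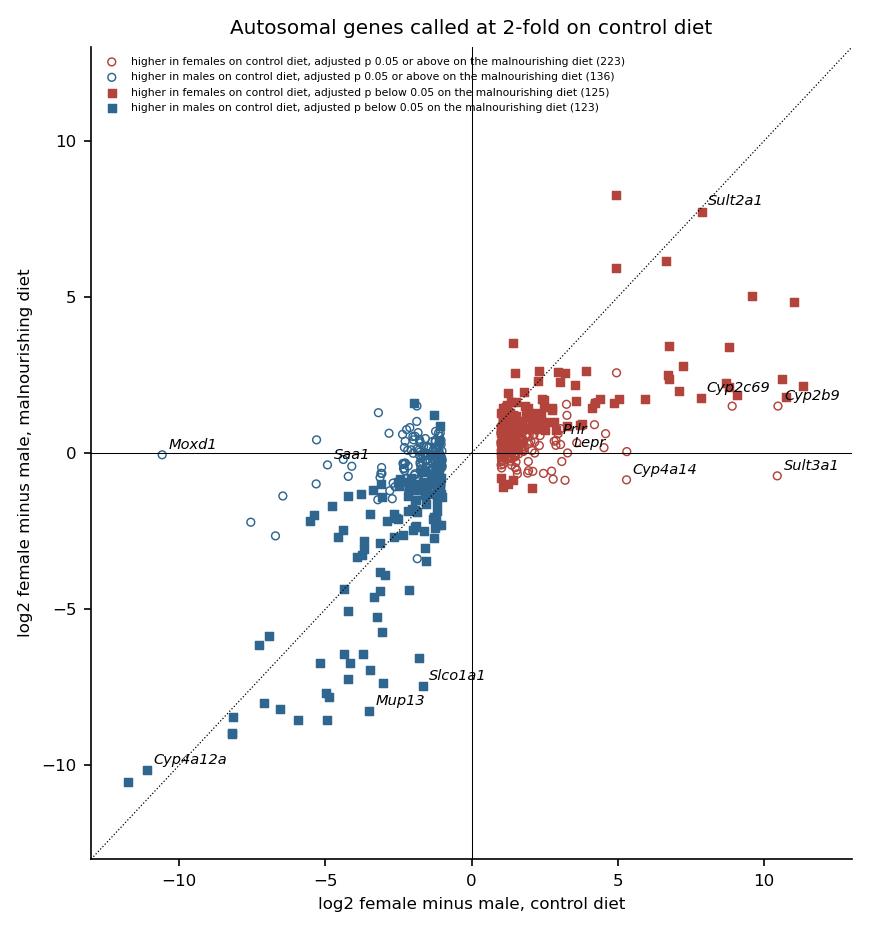
Each point is an autosomal gene called with an at least 2-fold sex difference on the control diet, with that difference (female minus male, log2, 5 against 4 libraries) on the horizontal axis and the difference on the malnourishing diet (5 against 5 libraries) on the vertical axis. Filled squares, 125 female-higher and 123 male-higher genes, are called in either direction on both diets, open circles, 223 and 136, only on the control diet, the dotted line marks equal differences, and many of the largest female excesses lie below it.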

How the data were processed

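RNA from frozen liver of 19 mice was sequenced from stranded total RNA libraries, per the labels' protocols. The deposited values are raw read counts per gene, made by the authors with Trim Galore, HISAT2 and featureCounts on mm10, per the submitters' processing notes; versions and the strand setting are not given in the sources used here, so antisense and overlapping genes cannot be told apart. All 19 count columns were used.

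Gene IDs were placed on GRCm38 by GENCODE M21 (21886 of 21950 found). Counts were fitted with edgeR 4.0.16 in R 4.3.3 (limma 3.58.1) as 4 group means over the 19 libraries with TMM scaling and filterByExpr (minimum count 10, total 15), which kept 13391 genes holding 99.98% of counts; the quasi-likelihood test had 15 residual degrees of freedom. Calls use Benjamini-Hochberg adjusted p below 0.05 over all 13391 genes. Levels are CPM of the library size times its TMM factor. X, Y and mitochondrial genes stayed in the fit and are not reported beyond the check of labels. On simulated counts with this design, 90 of 100 genes changed 2-fold and 99 of 100 changed 4-fold were recovered, with 8 of 13191 unchanged genes called. The simulation capped the spread between libraries and changed few genes, evenly in both directions and not among the lowest. It held no library set apart from its group, so these rates need not hold for the real counts.

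Named genes follow a rule: the 12 largest non-overlapping differences with a mean of at least 2 CPM and the 6 most abundant called genes in each direction, up to 4 called members of each list, members of the growth hormone, transcription factor, nuclear receptor, clotting and known sex-biased lists, and genes most and least alike between the diets; 1 gene that meets it is not reported here. Pde6c was named by the last part; genes outside the rule, such as Cd4, were chosen after their values were seen. The part of the series, the members and the lists were chosen with earlier results of these data known. Lists are described by counts and medians, with no set test. All 29 tested genes of a list of known female-biased genes were called higher in females (median 7.09) and all 29 of a known male-biased list higher in males (median -3.75). DESeq2 called 29 and 27. Of all tested autosomal genes 9.43% and 8.69% were called. These lists too were chosen with earlier results known, so the counts are no test. Sequences were taken from RefSeq by symbol, for 10092 of 12959 genes; 80.9% of 12897 windows were followed by 40 bases found on the same strand of a GENCODE transcript. DESeq2 1.42.0, other scalings and filters, leave-outs and a replicate block were tried as alternatives. No 2 libraries of a group were duplicates: counts of group mates differed with a chi-square over its degrees of freedom of at least 23.8 in females and 28.5 in males.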

Additional observations from a re-analysis of the deposited data

Results flagged for a closer look

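Among the 159 genes named here, 24 of 318 groups of 4 or 5 control libraries held a library whose gap to its nearest neighbour exceeded Dixon's 95% critical value as a share of the group's range. Chance flags about 1 in 20 groups, and the genes of 1 library are not independent. In 3 of them, Cyp2b10, Cyp3a41a and Sult3a1 in males, all other libraries of the group were at 0, so that the gap is the whole range by construction; these are all 3 screened groups with counts in 1 library alone. Female control 4 was set apart as the highest of its group in Angptl8 (397 CPM), Csf3r (5.53 CPM), Fitm1 (2.26 CPM), Igtp (200.1 CPM), Marco (75.6 CPM) and Timd4 (19.02 CPM). Male control 1 was set apart as the highest of its group in Cyp2b10 (0.109 CPM), Igfbp1 (788 CPM), Mup14 (1204 CPM) and Saa3 (105 CPM). Male control 4 was set apart as the highest of its group in Cyp2b9 (1.04 CPM), Cyp4a14 (53.7 CPM), Sult2a1 (0.741 CPM) and Sult3a1 (0.0337 CPM). Female control 4 was set apart as the lowest of its group in Igfbp1 (16.6 CPM) and Nr1i3 (49.8 CPM). Female control 5 was set apart as the highest of its group in Cyp7a1 (204 CPM) and Slc10a2 (9.13 CPM). Male control 4 was set apart as the lowest of its group in Hsd3b3 (195 CPM) and Mup8 (11.2 CPM). Female control 2 was set apart as the lowest of its group in Slc22a27 (19.2 CPM). Female control 3 was set apart as the highest of its group in Ces2b (0.326 CPM). Male control 1 was set apart as the lowest of its group in Sort1 (31.2 CPM). Male control 2 was set apart as the highest of its group in Cyp3a41a (0.0389 CPM). 

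The sex difference itself differed between the diets for 49 of these genes, against 2.11% of all tested autosomal genes. The calls are by edgeR's test of control minus malnourishing diet at an adjusted p below 0.05. The naming rule took up to 3 genes in each direction by that test. Many others were named for their sex difference on the control diet, which is a term of the test. The count is therefore not comparable with that share. All values are differences on the log2 scale. In genes higher in females on the control diet, a positive value means a smaller female excess or a difference of opposite sign on the malnourishing diet. The sign was opposite in Hpgd and in Cyp4a14, whose value exceeds its 5.29 on the control diet, among others. The largest values of such genes were Sult3a1 (11.18), Cyp2b13 (9.21), Cyp2b9 (8.97), A1bg (8.23), Acot3 (7.40), Slc22a26 (7.20), Cyp2a4 (6.67), Hao2 (6.44), Cyp4a14 (6.15), Cyp2c69 (6.07), Cyp3a16 (5.41) and Slc22a27 (5.10). Smaller ones were Cux2 (4.21), Cyp4a10 (4.07), Lepr (3.28), Cyp3a44 (3.27), Cyp4a31 (3.11), Cyp17a1 (2.65), Acot4 (2.64), Prlr (2.48), Vldlr (2.39) and Tox (2.16). The smallest were Vnn1 (1.97), Gstt3 (1.83), Abcc3 (1.64), Nr1i3 (1.61), Aldh3a2 (1.55), Hpgd (1.49), Trim24 (1.38), Igtp (1.36), Gbp3 (1.33), Apoc2 (1.32), Cyp3a11 (1.31), Prox1 (1.28), Mbl2 (0.86) and Ces1c (0.59). In Slco1a1 (5.81), Mup13 (4.76) and Mup3 (1.89) the value is positive because the male excess was smaller on the control diet. A male excess greater on the control diet gave Saa1 (-4.55), Saa2 (-4.18), Cyp7b1 (-3.06), C6 (-2.83), Gstp1 (-2.46), Cd4 (-1.99), Serpine2 (-1.96) and Saa4 (-1.94). In Steap4 (-2.17) and Rassf3 (-1.51) the fitted difference had the opposite sign on the malnourishing diet.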

How the results depend on the processing

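Of 144 called genes named here, 115 were called in every fit that left out 1 control library; of the 107 that differed at least 2-fold 96 were, and of the other 37 only 19. Counts of calls depended more on the settings than the large differences did. On the control diet the male-higher count of 1126 was 548 with library size alone and 706 with only the 9 control libraries, and ranged from 653 to 1338 over fits without 1 library. On the malnourishing diet, library size alone gave 1987 and 602 genes instead of 945 and 1358, and leaving out 1 library gave 509 to 1082 and 849 to 1526. For the difference between diets, DESeq2 gave 355 and 241 and the fit without the second label series 455 and 375, against 163 and 111, with 93 to 369 and 62 to 237 over fits without 1 library. The cause was not tested beyond the fewer libraries or other scaling of each setting.

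Reversed signs concerned genes that were not called. With library size alone F12 was 0.0634, Plg 0.0292 and Stat5b 0.0475; under the replicate block Jak2 was -0.0218 and Ppara -0.0533. Over the fits without 1 library, F10 ranged from -2.7117e-05 to 0.148, Jak2 from -0.043 to 0.171, Ppara from -0.0965 to 0.320, Socs2 from -0.350 to 0.901 and Stat5b from -0.153 to 0.0156. Same-numbered female and male control libraries deviated together with correlations of 0.01, 0.14, 0.05 and -0.01. Differently numbered libraries were not set beside them, so these values cannot tell whether the mice shared a litter or cage. With the number as a block, 1141 genes were higher in females and 1024 in males. DESeq2 gave no adjusted p for Mup7, Mup14 and Susd4.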
